A study of Mus musculus with 4 samples.

Results

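The transcription factor genes *Prdm1*, *Bcl6*, *Maf*, *Id2*, and *Id3* were examined as 5 of 22238 protein-coding genes, for the places where JunB, BATF, and IRF4 were bound around them in activated regulatory T (Treg) cells. A peak was assigned to a gene when its centre lay within 100 kb of any annotated transcription start site (TSS) of the gene in the mm9 mouse genome. By this rule the genes held 37 of 29659 JunB peaks, 24 of 13570 BATF peaks, 41 of 31093 IRF4 peaks of *Junb*-sufficient cells, and 38 of 29033 IRF4 peaks of *Junb*-deficient cells. These are 140 of 103355 peaks, and joined where they overlap they make 64 separate sites.

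Peaks came from chromatin immunoprecipitation-sequencing (ChIP-seq), in which DNA bound by a protein is recovered with an antibody, sequenced, and called as peaks where fragments pile up. CD4+CD25+ Treg cells from spleens of C57BL/6 mice were activated with antibodies to CD3 and CD28 together with IL-2 for 60 h. There was 1 library for each of 4 conditions, which were antibodies to JunB, BATF, or IRF4 on *Junb*-sufficient cells and an antibody to IRF4 on *Junb*-deficient cells. Mice were 6 to 12 weeks old. In the methods of the study *Junb*-sufficient cells are *Junb* fl/fl, and *Junb*-deficient cells carry *Cd4*Cre on that background, whereas the sample labels read Foxp3cre JUNB+/+ and Foxp3cre JUNBFl/Fl. *Cd4*Cre deletes a loxP-flanked allele in all T cells of the αβ lineage, while a *Foxp3* promoter drives Cre mainly in Treg cells, and which of them applies here could not be settled from the files. The labels' antibody entries for BATF and IRF4 of *Junb*-sufficient cells are the reverse of the sample titles and of the tag directories in the file headers, and the titles were followed. With 1 library per condition there is no test between genotypes, and the intervals given are exact (Clopper-Pearson) 95% intervals that cover counting error over peaks only. Peak lists hold no RNA, so that neither Treg identity nor loss of *Junb* could be checked against marker genes, and a site bound in fewer cells cannot be told apart from a site bound more weakly in each cell.

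The 5 genes encode regulators of the step from resting to effector lymphocytes. *Prdm1* encodes Blimp-1, a zinc-finger repressor required for IL-10 production by effector Treg cells, and *Bcl6* encodes a repressor that opposes Blimp-1 and directs follicular T cells. *Maf* encodes c-Maf, a basic leucine zipper factor that drives *Il10* and follicular and effector Treg programs. *Id2* and *Id3* encode helix-loop-helix proteins without a DNA-binding region, which hold E proteins away from DNA, with *Id2* typical of effector and *Id3* of resting or memory-like cells. IRF4 binds DNA weakly alone at interferon-stimulated response elements (ISRE) and more strongly at AP-1–IRF composite elements (AICE) beside a BATF–Jun dimer.

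The libraries held 21127029 to 27399986 tags. The peak caller HOMER used fragment lengths of 604 to 612 bp for the BATF and IRF4 libraries but 150 bp for JunB, so that JunB peaks are much narrower than the others, which span 605 or 613 bp. The score column is 1 throughout. Lines instead run in stretches that each follow chromosome order and then start over, as lists with tied ranks do, and peaks high in the IRF4 list were missing from the *Junb*-deficient list less often (5.00% of the highest 10% of the list against 67.3% of the lowest 10%). A place below is the middle of a peak's stretch in percent of the list from the top. The longest stretch spanned 7.29% of the JunB list and at most 2.48% of the other lists, so a place carries no finer order than its own stretch. In the highest 10% of the IRF4 lists the median stretch was 0.0450 and 0.0551 points wide, and for each of the 30 kept pairs below the stretches did not overlap.

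Sequences are shown for the sites on which the comparisons below turn, read 5′ to 3′ on the plus strand of mm9, with capitals marking motif matches. The AP-1 consensus was TGAGTCA or TGACTCA, an ISRE match was GAAA placed 2 bases before another GAAA, and an AICE match was GAAA directly before, or TTTC 4 bases before, an element of the form TGANTCA or TGANTAA. Both strands were searched, and an AICE match may contain an AP-1 match. At *Prdm1*, the *Junb*-sufficient IRF4 peak at chr10:44120175-44120787 is shown by the 201 bp around its centre, with an AICE match. Also at *Prdm1*, and chosen after their values were seen, are the JunB peak chr10:44139751-44139901, the only JunB peak of the 5 genes with an AICE match, and the JunB peak chr10:44164308-44164458 under the highest IRF4 peak, with an ISRE match. *Bcl6* and *Maf* are each shown by a JunB peak with AP-1 matches, and at *Id3* no named peak held an AP-1 or AICE match.
Prdm1 chr10:44120381-44120581, 58012 bp downstream of a TSS (IRF4 peak centre): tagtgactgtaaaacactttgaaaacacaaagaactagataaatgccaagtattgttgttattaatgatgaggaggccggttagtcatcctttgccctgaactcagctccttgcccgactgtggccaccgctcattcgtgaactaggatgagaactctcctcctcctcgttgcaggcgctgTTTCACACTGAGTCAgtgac
Prdm1 chr10:44139751-44139901, 38667 bp downstream of a TSS: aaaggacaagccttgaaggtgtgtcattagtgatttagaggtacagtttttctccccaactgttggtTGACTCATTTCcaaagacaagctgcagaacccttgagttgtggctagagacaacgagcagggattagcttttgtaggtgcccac
Prdm1 chr10:44164308-44164458, intron: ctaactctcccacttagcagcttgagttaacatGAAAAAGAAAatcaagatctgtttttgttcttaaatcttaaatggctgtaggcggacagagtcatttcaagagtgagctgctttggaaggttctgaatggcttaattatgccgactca
Bcl6 chr16:24067205-24067355, 78342 bp upstream of a TSS: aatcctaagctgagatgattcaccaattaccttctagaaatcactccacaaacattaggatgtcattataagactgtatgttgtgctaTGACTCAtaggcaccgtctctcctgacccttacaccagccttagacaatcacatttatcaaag
Maf chr8:118295043-118295193, 63424 bp upstream of a TSS: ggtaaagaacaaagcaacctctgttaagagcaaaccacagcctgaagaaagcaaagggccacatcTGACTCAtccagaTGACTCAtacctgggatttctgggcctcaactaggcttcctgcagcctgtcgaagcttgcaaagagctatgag

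*Prdm1* had the most peaks of the 5 genes in every list, and *Id3* had the fewest JunB peaks. *Prdm1* had 20 JunB peaks, 9 BATF peaks, 13 IRF4 peaks, and 16 IRF4 peaks in *Junb*-deficient cells, against medians over all protein-coding genes of 2, 1, 4, and 4. As many JunB peaks or more were found at 0.369% of all genes. *Prdm1* has TSSs up to 69.8 kb apart, which widens its window to 270 kb against a median of 200 kb. Per 100 kb of window it had 7.41 JunB peaks (median over all genes 1.00), a density that 0.742% of genes reached. Of its 20 JunB peaks, 12 had a *Prdm1* TSS as their nearest protein-coding TSS, and the other 8 lay nearer to that of *Atg5*, the next gene downstream. *Maf* had 9 JunB, 4 BATF, 7 IRF4, and 6 *Junb*-deficient IRF4 peaks, and 6.80% of genes had as many JunB peaks or more.

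*Bcl6* had 4 JunB, 5 BATF, 7 IRF4, and 3 *Junb*-deficient IRF4 peaks, and *Id2* had 3, 4, 4, and 6. *Id3* had 1 JunB peak and 2 BATF peaks but 10 IRF4 peaks, and 7 IRF4 peaks in *Junb*-deficient cells. The *Id3* window also holds TSSs of *Asap3*, *E2f2*, and *Rpl11*, and only 2 of its 10 IRF4 peaks had *Id3* as the nearest gene. The *Bcl6* window holds TSSs of *Rtp2* and *Sst*, with *Bcl6* nearest to 6 of 7 IRF4 peaks, and the *Maf* and *Id2* windows hold no other protein-coding TSS.

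**Figure D1:**
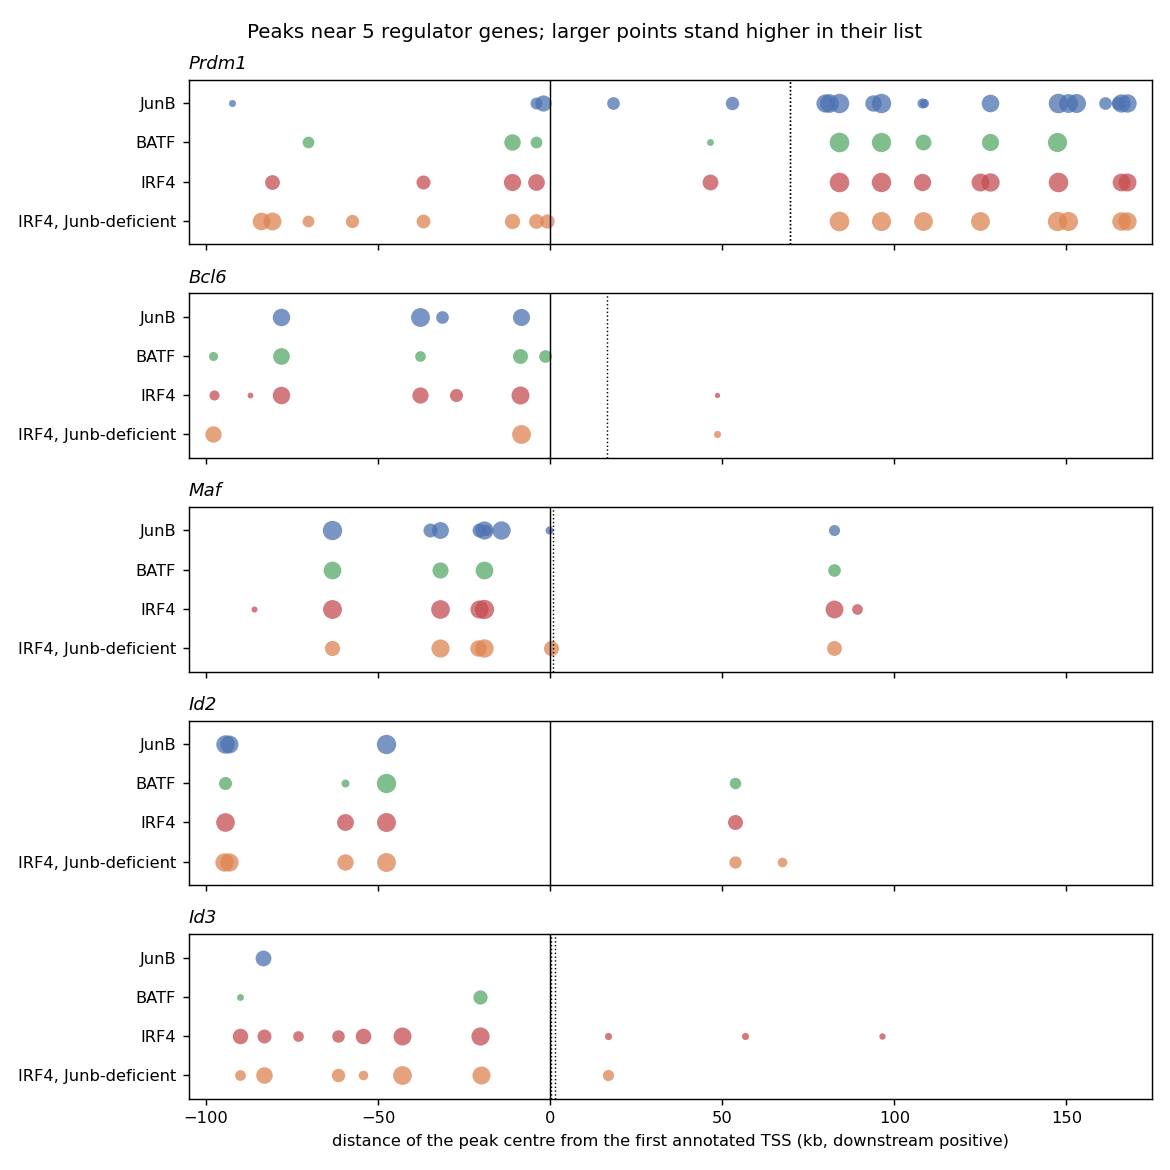
Each point is a peak, placed by the distance of its centre from the most upstream annotated TSS of the gene in kb (downstream positive), in rows by library; point area grows with a higher place in the list. Solid lines mark that TSS and dotted lines the other TSSs. *Prdm1* peaks gather downstream of its second group of TSSs, 69.8 kb from the first, while *Bcl6*, *Maf*, *Id2*, and *Id3* peaks lie mostly upstream.

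**Figure D2:**
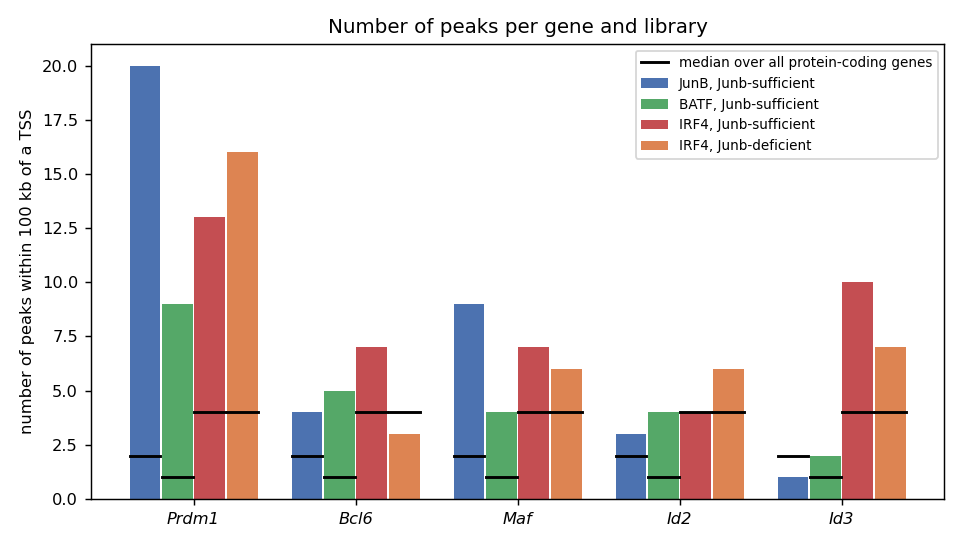
Bars give the number of peaks within 100 kb of a TSS of each gene in the 4 libraries, and black lines the medians over 22238 protein-coding genes (2, 1, 4, and 4). *Prdm1* is far above the medians in all 4 lists, and *Id3* has 1 JunB peak against 10 IRF4 peaks.

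Few peaks lay at the promoters. Within 1 kb of a TSS, *Maf* was the only gene of the 5 with a JunB peak, where 7.73% of all genes had one, and none of the 5 had an IRF4 peak of *Junb*-sufficient cells, where 24.8% of genes did. The *Maf* promoter JunB peak, chr8:118231814-118231964, lay 195 bp upstream of the TSS and low in its list, at 89.3%. It overlapped an IRF4 peak that was listed in *Junb*-deficient cells alone, chr8:118231230-118231834, centred 162 bp downstream of the nearest TSS over a non-coding exon or UTR of *Maf*, at 43.8%. *Maf* was also the only gene of the 5 with a *Junb*-deficient IRF4 promoter peak, where 27.3% of all genes had one. Just outside the 1 kb limit, a *Junb*-deficient IRF4 peak lay 1009 bp upstream of *Prdm1*, chr10:44249014-44249618, at 50.3%, again with no *Junb*-sufficient counterpart.

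JunB, BATF, and IRF4 met at 14 of the 37 JunB peaks (37.8%, 95% interval 22.5 to 55.2), against 33.5% of JunB peaks near any protein-coding gene. These were 5 of 20 at *Prdm1*, 3 of 4 at *Bcl6*, 4 of 9 at *Maf*, 2 of 3 at *Id2*, and 0 of 1 at *Id3*. With JunB peaks widened to the BATF width, 17 of 37 overlapped both, with 7 of 20 at *Prdm1*, 5 of 9 at *Maf*, and the other genes unchanged. The share near any gene at that width is not given here. Of the 64 sites, 12 were listed in all 4 libraries, of which 5 belonged to *Prdm1*, 4 to *Maf*, 2 to *Id2*, and 1 to *Bcl6*. Another 14 sites were listed for JunB alone, 10 of them at *Prdm1*, from 6.65% to 93.3% of the JunB list. JunB peaks were called from 10 tags and at least 300 bp apart, against 19 tags and 1210 to 1224 bp for the other lists. The local filter removed 5.25% of putative JunB peaks and 36.2% to 37.4% in the other lists. An effect of these settings on JunB-alone sites was not tested. *Prdm1* held 28 of the 64 sites. Shares of sites in all 4 libraries or for JunB alone were not computed over all genes. Whether 12 or 14 of 64 is usual therefore cannot be said. JunB peaks that overlapped neither BATF nor IRF4 of *Junb*-sufficient cells made up 17 of 37 (45.9%), and 11 of 20 at *Prdm1*, against 48.9% near any gene. IRF4 overlapped 22 of 24 BATF peaks (91.7%), and 88.7% near any gene.

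Seen from IRF4, 19 of 41 peaks of *Junb*-sufficient cells overlapped a JunB peak (46.3%, interval 30.7 to 62.6), where 39.4% of IRF4 peaks near any gene did. The genes lay on either side of that share. *Maf* had 5 of 7 and *Prdm1* 8 of 13, whereas *Id3* had 1 of 10 (10.0%, interval 0.253 to 44.5). All 4 IRF4 peaks of *Id2* overlapped BATF (interval 39.8 to 100%) and 2 of 10 did so at *Id3* (2.52 to 55.6%), against 37.9% of IRF4 peaks near any gene, and these intervals overlap each other.

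AP-1 matches lay within 100 bp of the centre of 9 of the 37 JunB peaks (24.3%), where 27.0% of JunB peaks near any gene held one, against 3.26% of windows of the same length 5 kb away. *Maf* had 3, *Prdm1* 3, *Id2* 2, and *Bcl6* 1 of these. The pair of matches at *Maf* printed above lies in a JunB peak at 2.44% of the list, and a match at *Id2* lies in a JunB peak at 2.50%. An AICE match was present at 1 of 37 JunB peaks, at *Prdm1*, where 3.97% of JunB peaks near any gene and 0.235% of shifted windows held one. ISRE matches were present at 6 of 37 JunB peaks (16.2%, interval 6.19 to 32.0), and 3 of these were at *Prdm1*, 2 at *Maf*, and 1 at *Bcl6*. The interval includes the 6.58% of JunB peaks near any gene, and 3.18% of shifted windows held a match. ISRE shares in the other lists were 9.76% for IRF4 (9.09% near any gene), 8.33% for BATF (8.91%), and 7.89% for *Junb*-deficient IRF4 (11.4%). Of the 41 IRF4 peaks, 9 held an AP-1 match, where 26.0% near any gene did. No IRF4 peak of the 10 at *Id3* held a match, and with 50 bp instead of 100 bp on either side the 5 genes had 3 of 41. The share near any gene with 50 bp is not given here.

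The main question of the design was whether IRF4 peaks were still listed without JunB. Near the 5 genes 11 of 41 IRF4 peaks had no *Junb*-deficient counterpart (26.8%, interval 14.2 to 42.9), against 34.6% of IRF4 peaks near any protein-coding gene. With the IRF4 list split into 10 parts by place, the missing shares of these parts, applied to the places of these 41 peaks, give 11.2 missing peaks, so that the count at the 5 genes was close to that of all peaks of like place. *Bcl6* had 4 of 7 missing (57.1%, interval 18.4 to 90.1; 2.76 from the parts), *Id3* 3 of 10, *Maf* 2 of 7, *Prdm1* 2 of 13 (15.4%, interval 1.92 to 45.4; 2.14 from the parts), and *Id2* 0 of 4. The intervals of all 5 genes overlap, and none of them excludes 34.6%. The other missing peak of *Prdm1*, chr10:44201649-44202261, lay in an intron of the gene at 37.3%, overlapped BATF but not JunB, and held an AP-1 match. The missing *Bcl6* peaks without JunB stood at 59.8% and 97.9%, with neither an AP-1 nor an AICE match. The missing peaks of *Id3* and *Maf* also stood low in the list, at 75.2% to 95.7% and at 75.2% and 96.9%.

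Among IRF4 peaks shared with JunB, 3 of 19 were missing (15.8%, interval 3.38 to 39.6), where 23.7% were near any gene. They were the *Prdm1* peak chr10:44120175-44120787 and the *Bcl6* peaks chr16:24026372-24026984 and chr16:24066942-24067554. All 3 also overlapped a BATF peak, which was usual. Of JunB peaks that overlapped IRF4, 14 of 19 at the 5 genes and 7714 of 11029 near any gene also overlapped BATF. The nearest protein-coding TSS of the *Prdm1* peak is that of *Atg5*, and of both *Bcl6* peaks that of *Bcl6*. The *Prdm1* peak stood at 13.2% of the IRF4 list, with its BATF peak at 25.6% and its JunB peak at 20.6%, and the nearest *Junb*-deficient IRF4 centre was 2911 bp away. It is the site with the AICE match printed above, and the only IRF4 peak of the 41 with such a match. The match lies outside the JunB peak of this site, chr10:44120373-44120523. That JunB peak held neither an AP-1 nor an AICE match within 100 bp of its centre. The *Bcl6* peaks stood at 33.6% and 21.6% of the IRF4 list, with JunB peaks at 7.71% and 21.8%, and the second holds the AP-1 match printed above. The JunB peak at 7.71% was the highest of *Bcl6*. At *Maf*, *Id2*, and *Id3* no IRF4 peak shared with JunB was missing (0 of 5, 0 of 2, and 0 of 1). With a limit of 50 kb 3 of 18 IRF4 peaks of the 5 genes were missing (16.7%), and the *Prdm1* peak and the second *Bcl6* peak lie beyond it. The share over all genes at 50 kb is not given here.

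**Figure D3:**
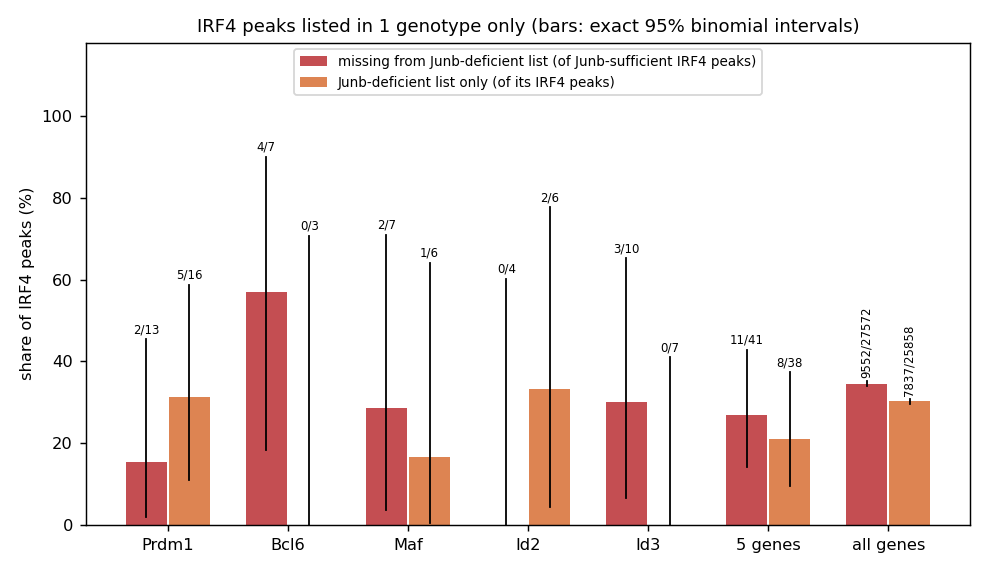
Bars show, for each gene, the 5 genes together, and all IRF4 peaks near a protein-coding TSS, the percent of *Junb*-sufficient IRF4 peaks missing from the *Junb*-deficient list and the percent of *Junb*-deficient peaks without a *Junb*-sufficient counterpart. Black lines are exact 95% intervals and numbers are counts. *Bcl6* has 4 of 7 missing and 0 of 3 in the *Junb*-deficient list alone, and the intervals of the 5 genes overlap each other.

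In the other direction, 8 of 38 *Junb*-deficient IRF4 peaks had no *Junb*-sufficient counterpart (21.1%, interval 9.55 to 37.3), against 30.3% near any gene. There were 5 of 16 at *Prdm1*, 2 of 6 at *Id2*, and 1 of 6 at *Maf*, and 0 of 3 and 0 of 7 at *Bcl6* and *Id3*. Of these 8, 3 overlapped a JunB peak of *Junb*-sufficient cells, and these were chosen for naming after their values were seen. They are the *Maf* promoter peak, chr10:44097504-44098108 at *Prdm1* (5.81% of the list, JunB at 7.71%), and chr12:25873895-25874499 at *Id2* (14.4%, JunB at 17.6%). At *Maf* the 2 peaks overlap only at their edges, with centres 357 bp apart. The share of such overlaps among *Junb*-deficient-only peaks near any gene is not given here, so whether 3 of 8 is usual cannot be said. With a limit of 50 kb 2 of 17 (11.8%) have no counterpart, and the share over all genes at that limit is not given here. If the BATF and IRF4 lists of *Junb*-sufficient cells are exchanged as the antibody entries would have it, 19 of 38 have none. The list searched for counterparts then holds 13570 peaks instead of 31093, and the share over all genes was not computed for it.

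The 30 IRF4 peaks kept in both lists were compared by their places. Over all kept pairs near a protein-coding gene 51.3% stood lower in the *Junb*-deficient list, and 61.1% of those shared with JunB. At the 5 genes 18 of 30 stood lower (60.0%, interval 40.6 to 77.3), and 11 of the 16 shared with JunB (68.8%, interval 41.3 to 89.0). *Maf* had all 5 kept pairs lower, all of them shared with JunB, by a median of 16.66 points (5.08 to 35.28). *Id2* had all 4 lower, by a median of 3.96 points. *Prdm1* had 6 of 11 lower, *Id3* 3 of 7, and *Bcl6* 0 of 3. The exact intervals for *Maf* (47.8 to 100%) and *Id2* (39.8 to 100%) both include 61.1%, and the intervals of the 5 genes overlap each other. The direction at *Maf* and *Id2* rests on the sample titles. With the BATF and IRF4 lists of *Junb*-sufficient cells exchanged, an alternative chosen after seeing the data, 1 of 4 pairs at *Maf* and 1 of 4 at *Id2* stood lower, and 4 of 19 over the 5 genes.

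At *Maf*, the peak that moved down most was chr8:118294815-118295427, from 7.59% to 42.9% of the list. It overlaps the JunB peak with a pair of AP-1 matches printed above, at 2.44% the highest JunB peak of *Maf*, and a BATF peak at 20.1%. Among 2462 kept IRF4 peaks in the same of the 10 parts of the list that also overlapped JunB, 2.88% moved down at least as far. That share counts peaks not chosen by their move, whereas this peak was named because it moved down most at *Maf*. The share therefore cannot show whether such a fall is unusual for the largest fall of a gene. The highest IRF4 peak of *Maf*, chr8:118250593-118251205, went from 3.72% to 13.3%, which 18.4% of like peaks matched. The remaining 3 went from 18.2% to 45.8%, from 15.7% to 32.4%, and, moving least, from 9.66% to 14.7% (chr8:118263507-118264119). No kept *Maf* peak stood higher in the *Junb*-deficient list.

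At *Prdm1* the highest peaks stood near the top of both IRF4 lists. The IRF4 peak chr10:44164109-44164721, in a *Prdm1* intron 14078 bp downstream of the nearest TSS, stood at place 9 of 31093, and in cells lacking *Junb* the matching peak stood at place 18 of 29033. BATF was listed there at place 22 of 13570 and JunB at place 360 of 29659, and the site holds the ISRE match printed above but no AP-1 or AICE match within 100 bp of any of the 4 centres. It was the highest peak of *Prdm1* in both IRF4 lists and in the BATF list. The highest JunB peak of *Prdm1*, chr10:44100796-44100946 in intergenic sequence 77622 bp downstream and nearer to the TSS of *Atg5*, stood at 0.738%, with IRF4 at 0.836% and 3.01% and BATF at 5.05%. A further IRF4 peak, 26254 bp downstream, went from 1.91% to 5.33%. These 3 sites were listed in all 4 libraries.

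Lower in the list, *Prdm1* peaks moved both ways. The peak that moved down most, chr10:44252184-44252796, 4183 bp upstream, went from 29.2% to 46.9%, and 29.7% of like peaks moved down as far. By contrast chr10:44328844-44329456, 80843 bp upstream, moved up from 46.0% to 17.4%, as far as 2.70% of like peaks did, and has neither JunB nor BATF. The IRF4 peak chr10:44139947-44140559 moved up from 23.8% to 9.37%, and its counterpart, chr10:44139761-44140365, overlaps the JunB peak with the AICE match printed above, which the *Junb*-sufficient peak does not. Both of these peaks were picked out after their values were seen. The shares of 29.7% and 2.70% count peaks not chosen by their move.

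At *Bcl6* the kept peaks all stood higher in the *Junb*-deficient list. The highest, chr16:23997425-23998037, 8793 bp upstream and the only *Bcl6* site in all 4 lists, went from 17.0% to 8.32%. Its counterpart, chr16:23997121-23997725, is centred 308 bp away, so the 2 peaks overlap only in part. They no longer paired when 50% of the narrower peak had to overlap, or when centres had to lie within 100 bp. Under either rule 5 of 7 *Bcl6* IRF4 peaks were missing. The peak chr16:24086405-24087017, without JunB, went from 78.7% to 32.9%, as far as 2.94% of like peaks moved up. It was picked out after its value was seen, as the *Bcl6* peak that moved up most, whereas this share counts peaks not chosen by their move. The peak that moved least, chr16:23940062-23940674, went from 99.6% to 93.2% and lay nearer to *Rtp2* than to *Bcl6*. Of kept peaks in the same parts of the list and alike in JunB overlap, 64.0% stood lower for the first of these 3 peaks and 12.6% for the last.

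At the *Id* genes the highest *Junb*-sufficient IRF4 peaks moved by 0.22 points at *Id2* and 1.53 at *Id3*. The *Id2* IRF4 peak chr12:25828245-25828857, over the JunB peak chr12:25828483-25828633 with an AP-1 match, went from 7.22% to 7.44%, with BATF at 3.14%. It was the highest peak of *Id2* in all 4 lists. The *Id2* peak that moved down most, chr12:25726985-25727597 in an intron of *Kidins220*, went from 44.4% to 65.1%. The highest IRF4 peak of *Id3*, chr4:135678855-135679467, 20251 bp upstream with BATF but no JunB, went from 14.8% to 16.3% and moved least of the *Id3* peaks. The highest in *Junb*-deficient cells, chr4:135656205-135656809, stood at 8.94% and at 17.0% in *Junb*-sufficient cells. The *Id3* peak that moved down most, chr4:135644698-135645310, went from 39.6% to 81.4%, has neither JunB nor BATF, and is nearest to *Rpl11*. The only JunB peak of *Id3*, chr4:135615807-135615957, stood at 37.3% and lies under an IRF4 peak that moved up from 53.2% to 31.1%.

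**Figure D4:**
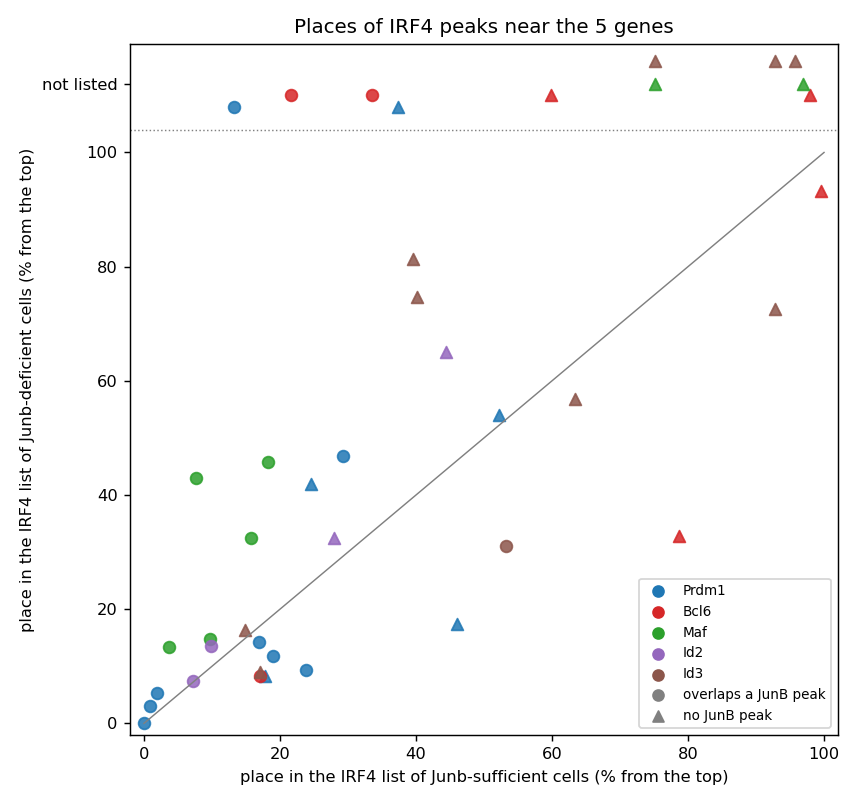
Each symbol is an IRF4 peak near the 5 genes, with its place in the *Junb*-sufficient list on the x axis and that of its counterpart in the *Junb*-deficient list on the y axis, in percent from the top. Circles overlap a JunB peak, triangles do not, and symbols above the dotted line have no counterpart. All 5 *Maf* circles lie above the diagonal, that is lower in the *Junb*-deficient list, and the 3 missing circles are 1 *Prdm1* and 2 *Bcl6* peaks.

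A list of 17 genes of the same network (partners, relatives, and targets of the 5, such as E proteins, *Maf* relatives, *Bach2*, and *Il10*) gives the setting. A JunB peak was listed at 15 of 17, where 82.3% of all genes had 1 or more, and the median was 3 JunB and 8 IRF4 peaks. *Bach2*, which encodes a repressor of *Prdm1*, had 43 JunB, 22 BATF, 34 IRF4, and 31 *Junb*-deficient IRF4 peaks, more than *Prdm1* in every list. *Il10*, a target of Blimp-1 and c-Maf, had 15, 6, 12, and 9. *Tcf12*, which encodes an E protein held by Id proteins, had 20, 6, 12, and 10, and *Tcf3*, which encodes E2A, had 1 JunB and 7 IRF4 peaks. Over the 17 genes 48 of 157 IRF4 peaks were missing (30.6%, interval 23.5 to 38.4), with an interval that includes 34.6%. They ranged from 0 of 8 at *Cxcr5* to 6 of 9 at *Bcl6b*, and 15 of 17 genes had such a peak, the others being *Cxcr5* and *Id4*, the latter without any IRF4 peak. The share of all genes with such a peak is not given here, so whether 15 of 17 is usual cannot be said.

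By the 5 counts of peaks (4 libraries and JunB peaks shared with BATF and IRF4, each as log2 of the count plus 1), the genes most alike were *Ms4a4b*, *Ptpn22*, and *Med7* for *Prdm1*, and *Gm9912*, *Atp8a2*, and *Dpy19l4* for *Bcl6*. They were *Arhgap5*, *Ddhd1*, and *Adh5* for *Maf*. For *Id2* they were *Atp1b3*, *Cx3cl1*, and *Gm17562*, all at the same distance. Distances ran from 0.14 to 0.42 over these 5 measures from 4 libraries.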

How the data were processed

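The authors deposited 1 peak list per library, and the only numeric column beside coordinates is a peak score of another kind, which is 1 in every line, so no tag counts, folds, or p-values per peak were used. Per the file headers and the labels, reads were aligned with Bowtie2 to mm9 and peaks called with HOMER (version 4.8 in the submitters' processing notes, another version in the study's methods) in factor style, with no control library, at most 1 tag per bp, a false discovery rate of 0.001, and a 4-fold excess over the surrounding 10 kb. JunB peaks are narrow since HOMER took 150 bp as that library's fragment length, and narrow peaks overlap others less. The list order has no name in the headers.

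TSSs came from GENCODE vM1 on mm9, and all peak chromosomes matched the mm9 reference. Overlap meant at least 1 bp. Motifs were searched in 201 bp around each centre, and shares were set beside all peaks within 100 kb of a protein-coding TSS and beside windows shifted by 5 kb. Samples were grouped by title. Named peaks were, per gene, the highest in each list, those within 1 kb of a TSS, IRF4 peaks shared with JunB and missing in *Junb*-deficient cells, and the kept IRF4 peaks that moved down most and moved least. The sequence of a named peak was to be printed where its JunB peak, or its centre, held an AP-1 or AICE match, for at most 2 peaks per gene, and the sequence at *Id2* and the genes alike to *Id3* are not reported here. Genes alike were ranked by Euclidean distance of log2 counts, leaving out genes with a TSS within 200 kb. The genes, lists, and rules were chosen with earlier results of these data known. Python 3.11.15, NumPy 2.4.6, and SciPy 1.17.1 were used, and overlap and motif code was tested on simulated data. Distance limits, overlap rules, list depth, motif windows, and the exchange of BATF and IRF4 were varied.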

Additional observations from a re-analysis of the deposited data

How the results depend on the processing

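No paired analysis was possible because each condition has 1 library, and for the same reason no library could be left out. Over the 5 genes together, 27 of 36 values stayed within the 95% interval of the reported share, or within 1.5 times the reported count, under the alternatives. These intervals are wide and cover counting error only, and the alternatives reuse the same lists. The tally is therefore no measure of robustness. With a 50 kb limit the number of peaks was 70 instead of 140, with 10 kb it was 14, and in the first 50% of every list 90. With the 10 kb limit the share of missing IRF4 peaks was 0% (0 of 2) and the share of *Junb*-deficient peaks without a counterpart 50% (2 of 4). Exchanging BATF and IRF4 also raised that share to 50%, and lowered the share of kept IRF4 peaks standing lower from 60.0% to 21.1% (chosen after seeing the data). Both values put a list of 13570 peaks in place of one of 31093, and an effect of list length was not tested. With 50 kb the shares were 16.7% missing (3 of 18, instead of 26.8%) and 11.8% without a counterpart (2 of 17, instead of 21.1%). Motif windows of 50 bp on either side lowered the AP-1 share in IRF4 peaks to 7.32% and the AICE share to 0%. Shares over all genes are given for the main settings only. The values under the alternatives therefore have no like share over all genes to be set against. For single genes 101 of 131 values stayed within these bounds, and the counts per gene of 1 to 20 peaks limit what they can show. For *Id3* only 5 of 20 peaks remained when peaks nearest to another gene were left out, and none of its missing peaks did. The 3 missing peaks shared with JunB were also missing with any *Junb*-deficient centre within 1 kb accepted as a counterpart, since the total of 11 did not change.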
